A study of Xenopus laevis with 4 samples.

Results

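Molecular chaperones bind unfolded proteins and help them reach or keep their native shape. Hsp70 proteins do so in cycles of ATP hydrolysis that are started by DnaJ proteins, also called J proteins, and reset by nucleotide exchange factors such as the Hsp110 and BAG proteins. Hsp90 matures signalling proteins and, with dedicated partners, the dynein motors of cilia. The ring-shaped chaperonin CCT folds actin and tubulin. The genes described here are those of Xenopus laevis whose symbol on the array platform, without the .L or .S of the long and short subgenome copies (homeologs), begins with hsp, dnaj, cct2 to cct8 or bag1 to bag6, or is tcp1; hspb11, which encodes a part of the intraflagellar transport machinery, was left out. They were 80 of 11303 symbols with a probe set, read by 105 probe sets, and each symbol is given by its brightest probe set. Members were picked by name. The group itself was chosen with earlier results of these data known.

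The tissue was presumptive ectoderm from embryos injected at the 2-cell stage, cut out at stage 9 to 10 and kept in culture. The MCI-HGR group received synthetic mRNA for MCI-HGR together with mRNA for ICD, and the ICD group received mRNA for ICD alone. In this field ICD usually names the Notch intracellular domain, an always active signal that blocks the multiciliated fate in ectoderm. MCI-HGR usually names multicilin, a nuclear protein that starts that fate, fused so that a hormone switches it on. Dexamethasone, the hormone, was added to all explants at stage 11.5, with harvest 5 h later near stage 14, so the ICD group had the hormone and the Notch signal but not MCI-HGR. There were 2 arrays per group, numbered 1 and 2 in the labels, and arrays that shared a number are called set 1 and set 2. Each value is a MAS5 signal, the linear intensity that the authors give each probe set on each array.

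The arrays parted by set in their signals, with a median of 44.2 on the MCI-HGR array and 45.4 on the ICD array of set 1, and 37.1 and 37.6 on those of set 2. Markers of epidermis were present, with 13 of 14 above the highest tag control (a probe set with no target in the sample) on all 4 arrays. The summed signal of 9 multiciliated cell markers was 22469 and 21633 on the MCI-HGR arrays, against 6531 and 7972 on the ICD arrays. Of these 9, 8 were above the highest tag control on all 4 arrays. Most of the ICD sums came from tubb4b.L and tubb4b.S, at 4608 and 1121 in set 1 and 5805 and 1297 in set 2. With MCI-HGR these genes were at 6778 and 2837 in set 1 and 8692 and 3775 in set 2. The gap was wider for foxj1.S, at 3819 and 2668 with MCI-HGR against 283 and 268.7 with ICD alone. The part of these markers in the results was not tested. The summed signal of 8 mesoderm markers was 1059 and 186 on the MCI-HGR arrays and 1761 and 156 on the ICD arrays. It was high in set 1 in both groups, and 5 of these 8 were above the highest tag control on all 4 arrays. Most of the set 1 sums came from tbxt.L and tbxt.S, at 273.1 and 474.1 on the MCI-HGR array and 668.9 and 930.4 on the ICD array. Not all mesoderm markers went this way: myod1.L was at 22.9 in set 1 and 38.5 in set 2 with MCI-HGR. The sum of 7 neural markers was also higher in set 1, at 6657 and 3384 with MCI-HGR and 6897 and 2709 with ICD alone. That of the 14 epidermal markers was lower in set 1, at 49553 and 74359 with MCI-HGR and 46810 and 76074 with ICD alone. Single markers such as otx2.L (neural) and epcam.S (epidermal) went against their sums. The actin control's ratio of middle to 3' signal was 0.569 and 0.401 with MCI-HGR and 0.64 and 0.652 with ICD alone. The ratio of 5' to 3' signal was 0.526 and 0.467 against 0.572 and 0.586 for the gapdh control. For the Dap control it was 0.0415 and 0.028 against 0.062 and 0.0646. These signs of RNA or labelling quality ran with the group beside every result below, and their part in the results was not tested. In whole explants, fewer cells of a type and less RNA per cell cannot be told apart.

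The question was what multicilin changes while the Notch signal is held on. Most chaperone genes, like most of all genes tested, lay close to their ICD level. Of the 80, 72 passed the filter on dim probe sets, and 53 of these 72 had a log2 difference between -0.25 and 0.25, which is 73.6% against 69.4% of all 9380 genes tested. The median of these differences was 0.011, with 0.0085 for set 1 and 0.038 for set 2, against 0.0066 over all genes. With the set as a block in limma, 9 chaperone genes were higher with MCI-HGR and 4 lower at an adjusted p of 0.05 over all genes, or 18.1% of 72, where 6.65% of all genes were called higher, 3.27% lower and 9.93% in either direction. Rose and fell are used below for these 13. The chaperone genes were brighter than all genes tested, with a median signal of 392.2 against 189. In the blocked fit bright genes had smaller standard errors (SE). The SE was 0.054 for hspa1l.S, at a mean signal of 10596, and 0.39 for hspbap1.L, at 15.4. The part of brightness in the share called was not tested. Without the block 0 of 72 passed, as did 0% of all genes, while an unadjusted p of 0.05 was met by 3 chaperone genes that were higher and 0 that were lower (3.67% and 0.448% of all genes). The blocked fit has 1 residual degree of freedom and takes most of its error from genes of like brightness (24 prior degrees of freedom); without that intensity trend 0 of 72 passed and 0.437% of all genes did. The adjusted p of these 13 genes was then between 0.0843 and 0.571. For each of the 13, the p of the blocked fit is followed by its range over 8 blocked fits, the other 7 of which differ from it in 1 processing choice each.

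**Figure D1:**
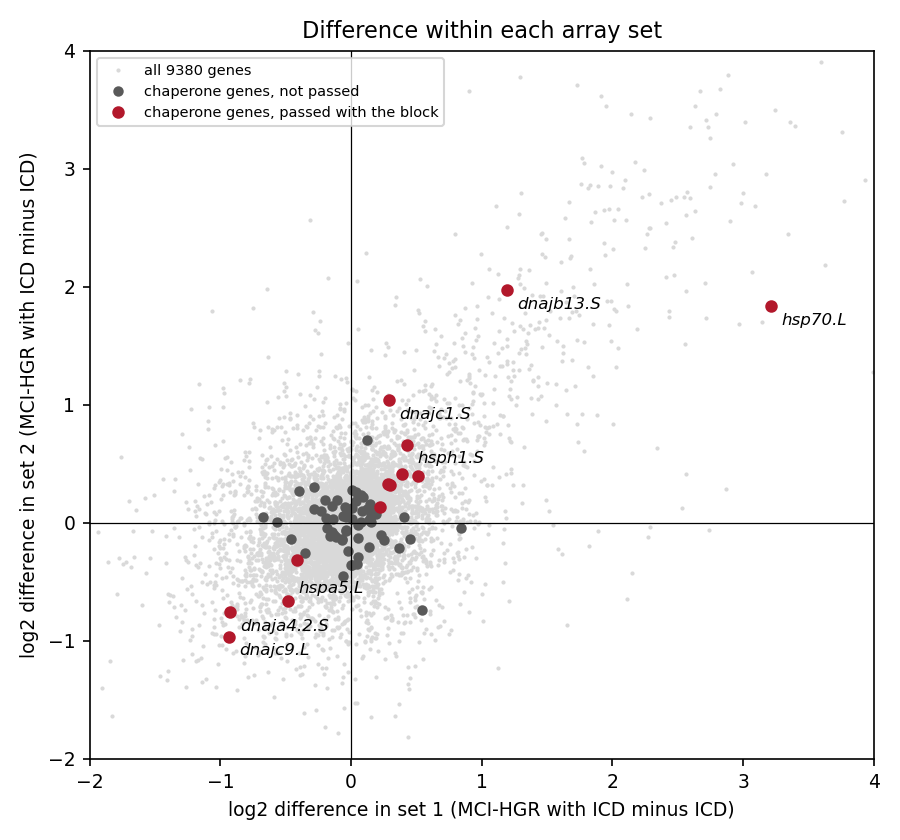
Each point is a gene, with its log2 difference between the MCI-HGR array and the ICD array of set 1 on the horizontal axis and of set 2 on the vertical axis; light points are all 9380 genes tested (25 lie outside the axes), dark points the 59 chaperone genes that did not pass and red points the 13 that passed with the set as a block. hsp70.L and dnajb13.S stand apart at the upper right, while most chaperone genes crowd around 0 in both sets.

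The Hsp70 family held the largest rise among the chaperone genes. hsp70.L encodes the heat-inducible Hsp70 of the cytosol and nucleus, the classic transcript of the heat shock response. Its signal was 530.2 and 480.3 on the MCI-HGR arrays, against 57.3 and 134.3 on the ICD arrays. The groups did not overlap and the gap was wider in set 1 (9.25-fold) than in set 2 (3.58-fold); the ICD array of set 1 was the lowest of the 4. hsp70.L rose 5.75-fold, a log2 difference of 2.52 ± 0.19 (SE, n = 2 per group; limma with the block, adjusted p = 1.06e-10, range 5.83e-17 to 0.125). That SE takes most of its error from other genes of like brightness, and without the block it was 0.46. Over the 4 fits with 1 array left out and no block the log2 difference of hsp70.L ran from 1.91 to 3.14. It passed in 1 of these (limma, adjusted p = 0.0117), in which the ICD group was its lowest array alone and the spread came from the MCI-HGR arrays only, so that pass supports nothing about the spread among ICD arrays. Hsp70 genes are alike in sequence, and how far this probe set also reads other Hsp70 transcripts is not known here.

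The bright constitutive members of the family stood near their ICD level. hspa8.L, the housekeeping Hsp70 of the cytosol, read 7591 and 10081 with MCI-HGR against 6907 and 9929 with ICD alone, a log2 difference of 0.079 ± 0.056 (SE, n = 2 per group). hspa1l.S, another cytosolic Hsp70 and the brightest chaperone gene of all, read 10526 and 11938 with MCI-HGR, against 9035 and 10887 with ICD alone. It rose by the small margin of 1.13-fold (limma with the block, adjusted p = 0.0332, range 0.0265 to 0.571), and the groups overlapped across sets. hspa1a.S lay at or below the highest tag control on all 4 arrays, at 5.6 and 6.9 against 13 and 5.9, and could not be compared. Log2 differences of the mitochondrial Hsp70 genes hspa9.L and hspa9.S were -0.065 and -0.048.

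The Hsp110 proteins speed the release of ADP from Hsp70. hsph1.S was at 476.6 and 562.9 with MCI-HGR and at 353.7 and 355.6 with ICD alone. Both MCI-HGR values lay above both ICD values, which were nearly equal to each other. hsph1.S rose 1.46-fold (1.35- and 1.58-fold in sets 1 and 2; limma with the block, adjusted p = 0.000883, range 0.000247 to 0.213). Its homeolog hsph1.L did not pass, at 262.5 and 220.5 with MCI-HGR against 268.3 and 207.3 with ICD alone, and the difference between the homeologs was not tested. hspa4.S, of the same group, had a log2 difference of 0.15 ± 0.091 (SE, n = 2 per group) and did not pass. Its dimmer probe sets went the other way, with log2 differences of -0.15 and -0.42. The homeolog hspa4.L, a dim gene, was at -0.32 and did not pass.

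Among the J proteins, which hand clients to Hsp70, dnajb13.S had the largest rise. In other species its protein is a part of the radial spokes of motile cilia and sperm tails, which sets it apart from the general folding machinery. The signal was 309.3 and 578 with MCI-HGR, against 135.4 and 147.1 with ICD alone. Both MCI-HGR arrays were above both ICD arrays, and the set 2 array was the higher one. dnajb13.S rose by a log2 difference of 1.58 ± 0.15 (SE, n = 2 per group), which was 2.28- and 3.93-fold in sets 1 and 2 (limma with the block, adjusted p = 7.91e-09, range 1.93e-12 to 0.122). Without the block the SE of dnajb13.S was 0.36. Of 624 genes called higher with the block, hsp70.L ranked 87 by p and dnajb13.S 126.

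Other J protein genes changed less. dnajb6.S, whose protein holds back aggregation of misfolded proteins in mammals, was at 835.9 and 1027 with MCI-HGR against 681.8 and 824.9 with ICD alone and rose 1.24-fold (limma with the block, adjusted p = 0.0272, range 0.0191 to 0.352). dnajc1.S, for a J protein in the membrane of the endoplasmic reticulum, was at 268.3 and 346.8 with MCI-HGR against 219.7 and 168.6 with ICD alone and rose 1.58-fold. That rise differed between the sets, at 1.22- and 2.06-fold in sets 1 and 2 (limma with the block, adjusted p = 0.00265, range 0.000566 to 0.348). Both genes had MCI-HGR values above both ICD values. Of the 35 J protein genes tested, 3 rose, 2 fell and 30 did not pass, where 6.65% of all genes were called higher and 3.27% lower.

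Of the J protein genes that fell, dnajc9.L encodes a co-chaperone that in human cells escorts newly made histones H3 and H4. It was at 85.2 and 54.8 with MCI-HGR, against 162.7 and 107 with ICD alone. It fell by almost the same factor in each set, 1.91-fold and 1.95-fold, and the groups did not overlap (limma with the block, adjusted p = 0.000384, range 0.00011 to 0.0843). dnaja4.2.S, for a J protein of the cytosolic type, was at 25.8 and 29.1 with MCI-HGR against 49 and 49.2 with ICD alone, 1.79-fold lower (limma with the block, adjusted p = 0.0407, range 0.0266 to 0.109). It passed in 2 of the 7 blocked fits that tested it and is a dim gene, at a signal below 50 on every array. dnaja1.L and dnaja2.S, partners of cytosolic Hsp70 and the brightest J protein genes, did not pass, at 0.041 ± 0.067 and 0.14 ± 0.072 on the log2 scale (SE, n = 2 per group). dnajc25.S, the brightest of the dnajc genes, had a log2 difference of -0.13 ± 0.073.

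**Figure D2:**
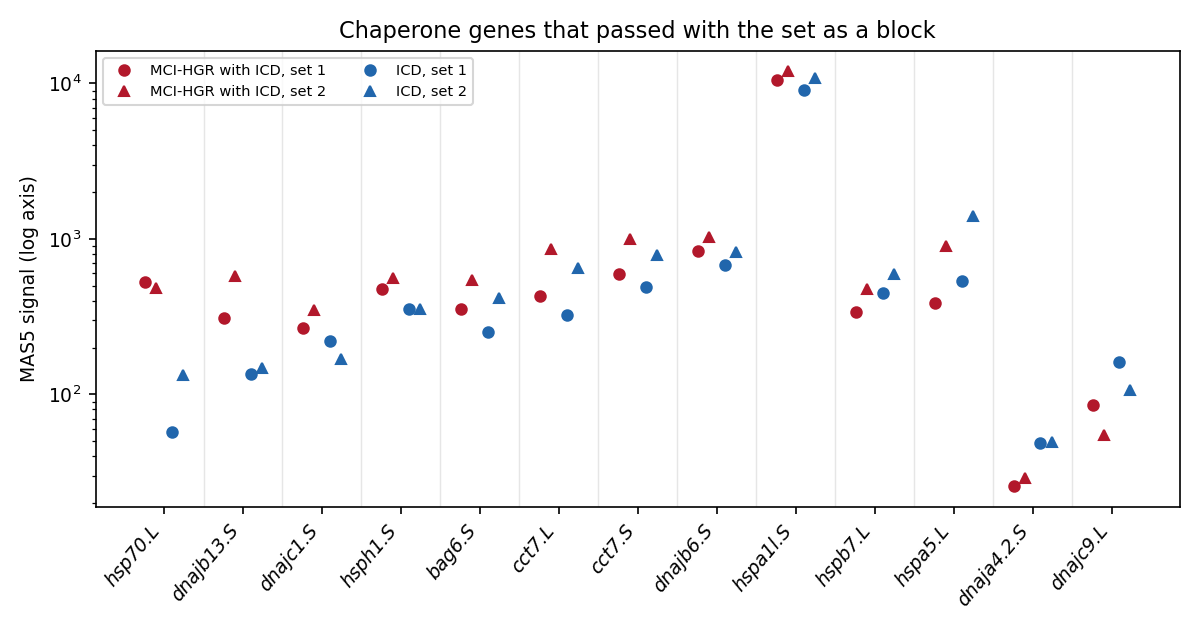
MAS5 signal on a log axis for the 13 chaperone genes that passed with the set as a block, ordered by their log2 difference from highest to lowest; each symbol is 1 array, red for MCI-HGR with ICD and blue for ICD, circles for set 1 and triangles for set 2. The groups part without overlap for hsp70.L, dnajb13.S, dnajc1.S, hsph1.S, dnajb6.S, dnaja4.2.S and dnajc9.L; for the other 6 genes they part within each set but overlap across sets.

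The CCT chaperonin takes in newly made tubulin and actin. All 13 CCT genes tested gave clear signals, with means from 138.3 for cct4.L to 1496 for cct5b. By their brightest probe sets, 8 of the 13 were higher in both sets and 0 were lower in both, where 32.7% of all genes were higher in both sets and 29% lower in both. A dimmer probe set of cct2.S, at 366.8 and 442.6 with MCI-HGR against 473.8 and 489.5 with ICD alone, was lower in both. All 5 probe sets of cct5.S had mean log2 differences below 0, from -0.40 to -0.016. The -0.40 came from a probe set above the highest tag control on no array, at 6.9 and 6.7 with MCI-HGR against 9.1 and 8.9. Its other probe sets each changed direction between the sets, the brightest at 0.056 in set 1 and -0.29 in set 2. The median log2 difference of the CCT genes was 0.11 (sets 1 and 2: 0.15 and 0.061), and 10 of the 13 lay within 0.25 of 0. Both homeologs of cct7 rose: cct7.L was at 427.9 and 860.4 with MCI-HGR against 326.5 and 647.2 with ICD alone (1.32-fold; limma with the block, adjusted p = 0.00847, range 0.00486 to 0.259). cct7.S was at 594 and 997.7 with MCI-HGR against 488.9 and 792.5 with ICD alone (1.24-fold; limma with the block, adjusted p = 0.0367, range 0.0272 to 0.353). For both, each set showed a like gap, but set 2 was the brighter in both groups and the groups overlapped. Leaving out single arrays moved the log2 difference of cct7.L between -0.10, where the second MCI-HGR array was out, and 0.90, where the first was. That of cct7.S moved between -0.068 and 0.68, and cct7.S passed in 4 of the 8 blocked fits. The remaining 11 did not pass, among them tcp1.L at 766.8 and 867.4 with MCI-HGR against 692 and 803.1 with ICD alone, and cct5b at 1130 and 1797 against 1089 and 1970.

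**Figure D3:**
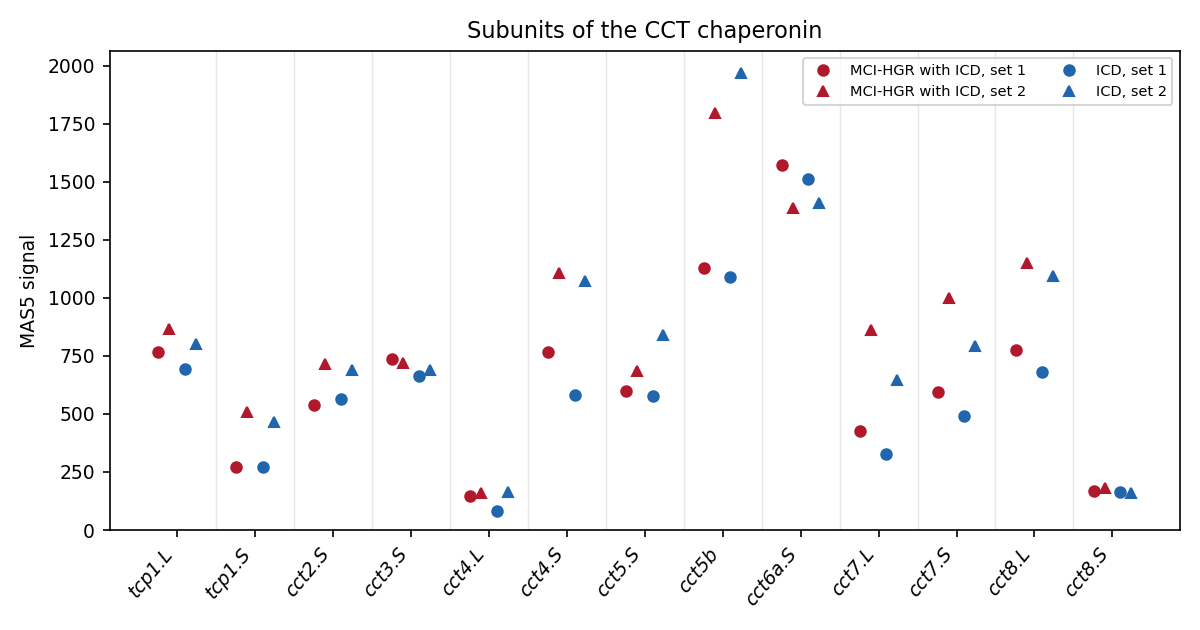
MAS5 signal on a linear axis from 0 for the 13 genes of CCT subunits; each symbol is 1 array, red for MCI-HGR with ICD and blue for ICD, circles for set 1 and triangles for set 2. For most genes the gap between circles and triangles is wider than that between red and blue; the set difference exceeded the group difference in 11 of 13 genes.

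In the endoplasmic reticulum, where secreted and membrane proteins fold, the central Hsp70 is BiP, encoded by hspa5. hspa5.L was at 386.9 and 894.1 with MCI-HGR, against 540.3 and 1414 with ICD alone. In each set the MCI-HGR array was the lower one, while both arrays of set 2 were above both of set 1, 2.46-fold by the set means. hspa5.L fell 1.49-fold (1.40- and 1.58-fold in sets 1 and 2; limma with the block, adjusted p = 7.85e-05, range 9.47e-06 to 0.19). With 1 array left out and no block, its log2 difference ran from -1.27 without ICD replicate 1 to 0.12 without ICD replicate 2. The dimmer probe set of hspa5.L, at 145.3 and 299.5 with MCI-HGR against 182 and 537.3 with ICD alone, gave a log2 difference of -0.58, next to -0.57 for the brighter one, whose name marks probes that can also bind other sequences. hspa5.S was at 255 and 572.4 with MCI-HGR against 255.5 and 731.9 with ICD alone, nearly equal in set 1 and lower with MCI-HGR in set 2, and did not pass.

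Other chaperones of this compartment gave a mixed picture. Of 10 such genes tested, hspa5.L fell, dnajc1.S rose and 8 did not pass, where 9.93% of all genes were called, and 5 were lower in both sets, as were 29% of all genes. dnajb9.L, for a J protein that works with BiP, was at 184.5 and 347.8 with MCI-HGR against 235.7 and 414.8 with ICD alone, and had the smallest p of all chaperone genes that did not pass (log2 difference -0.30 ± 0.12, SE, n = 2 per group; limma with the block, adjusted p = 0.148). The Hsp90 of this compartment, hsp90b1.L, was at 1708 and 2022 with MCI-HGR against 1459 and 2174 with ICD alone, higher in set 1 and lower in set 2. In a list of 25 other genes of folding in this compartment, sdf2l1.L fell 1.37-fold (limma with the block, adjusted p = 0.00626), 0 rose and 24 did not pass. That is a share of 4% called beside 9.93% of all genes.

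**Figure D4:**
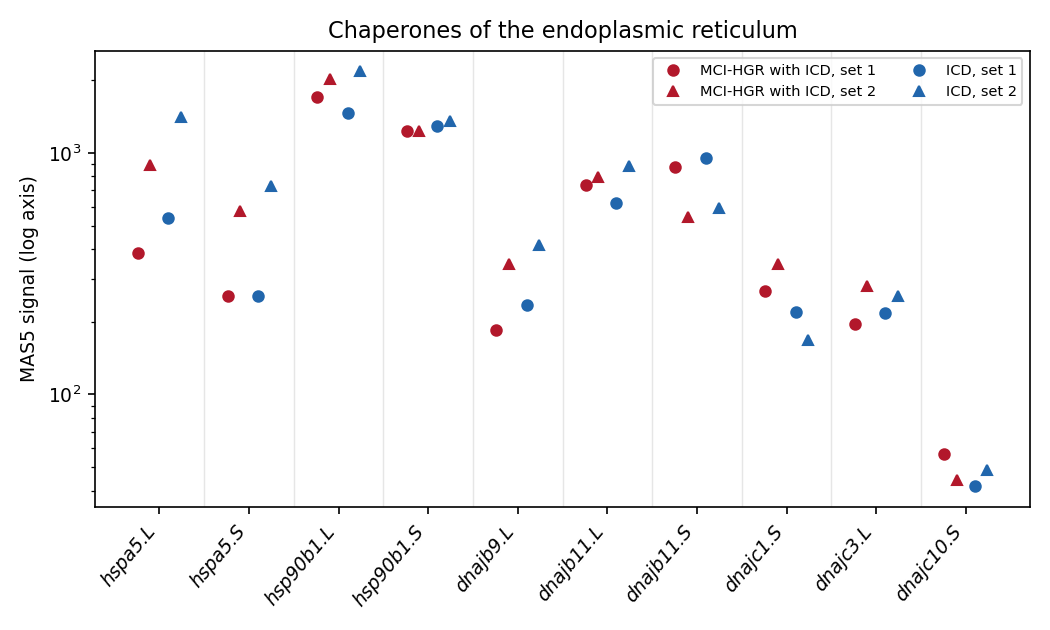
MAS5 signal on a log axis for the 10 chaperone genes of the endoplasmic reticulum; each symbol is 1 array, red for MCI-HGR with ICD and blue for ICD, circles for set 1 and triangles for set 2. hspa5.L lies lower with MCI-HGR in each set, while the 2.46-fold gap between its sets is wider than that between the groups.

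None of the 7 mitochondrial chaperone genes passed, and all 7 lay within 0.25 of 0 on the log2 scale. Over all genes 9.93% were called and 69.4% lay within 0.25 of 0. The chaperonin of that organelle pairs the ring protein of hspd1 with the lid of hspe1. hspd1.S was at 1403 and 1044 with MCI-HGR against 1288 and 963.3 with ICD alone, and hspe1.L at 757.7 and 863.9 against 736.6 and 719.1, which is 0.12 ± 0.083 and 0.15 ± 0.095 on the log2 scale (SE, n = 2 per group). A dimmer probe set of hspd1.S, at 816 and 864.1 with MCI-HGR against 958.3 and 845.7 with ICD alone, had a log2 difference of -0.10. For hspe1.L both MCI-HGR values were above both ICD values, although the nearest values were 757.7 with MCI-HGR and 736.6 with ICD alone. hspd1.L was too dim to test.

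hsp90ab1.S, for the constitutive Hsp90 of the cytosol, did not pass, and its 4 probe sets did not point one way. Its brightest probe set was at 257.7 and 502 with MCI-HGR against 380.9 and 499.2 with ICD alone, a log2 difference of -0.28 ± 0.12 (SE, n = 2 per group), while a dimmer one was at 332.3 and 399.1 with MCI-HGR against 260.4 and 302.2 with ICD alone, a log2 difference of 0.38. The widest split between probe sets was that of dnaja1.L, for a J protein partner of cytosolic Hsp70. Its brightest probe set was at 3077 and 3613 with MCI-HGR against 2916 and 3599 with ICD alone, and its other probe set at 1906 and 1081 with MCI-HGR against 919.1 and 296 with ICD alone, 2.07- and 3.65-fold higher in sets 1 and 2. With the mean over probe sets in place of the brightest, dnaja1.L had a log2 difference of 0.75 and passed (limma with the block, adjusted p = 0.000135; over its other 7 blocked fits from 0.626 to 0.971). Of 16 symbols with several probe sets, 8 had all probe sets on one side of 0, and dnaja1.L alone had a range above 1 on the log2 scale. These counts took in probe sets too dim to pass the filter. Among the 8 symbols, this held for the probe sets of hspa1a.S and for a probe set of cct5.S.

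Small heat shock proteins hold unfolding proteins in solution without ATP. hspb7.L, best known from heart and skeletal muscle in mammals, was the only one of 5 such genes bright enough to test, at 337.2 and 476.6 with MCI-HGR against 448.6 and 594.5 with ICD alone. It fell 1.29-fold (1.33- and 1.25-fold in sets 1 and 2; limma with the block, adjusted p = 0.0246, range 0.0174 to 0.296), with overlap across sets. The muscle marker tnnt3.S was at 3.4 and 4 with MCI-HGR and 0.7 and 2.6 with ICD alone, below the highest tag control on every array. Among the mesoderm markers, actc1.L was at 52.3 and 30.1 with MCI-HGR against 41.2 and 65.8 with ICD alone. It was above that control on all 4 arrays, as were myod1.L and myod1.S, while myf5.L was above it on 1. The small heat shock protein genes hspb1.L, hspb1.S, hspb6.L and hspb8.L lay at or below the highest tag control on all 4 arrays, between 1.6 and 9.3. dnajb2.L and the stress-inducible co-chaperone gene bag3.L were also below the filter, bag3.L at 11.7 and 9.5 with MCI-HGR against 10.1 and 11.4 with ICD alone. With hspa1a.S and hspd1.L these made up the 8 genes too dim to compare.

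bag6.S, for a chaperone that guides membrane proteins and clears those that fail, was at 356.1 and 545.8 with MCI-HGR against 250.3 and 414.4 with ICD alone. It rose 1.37-fold (1.42- and 1.32-fold in sets 1 and 2; limma with the block, adjusted p = 0.00706, range 0.00396 to 0.233). Its homeolog bag6.L was at 212.1 and 188.5 with MCI-HGR against 257.9 and 173.5 with ICD alone, lower in set 1 and higher in set 2, and did not pass. hspbp1.L, for an exchange factor of Hsp70, had a log2 difference of -0.13 ± 0.1 (SE, n = 2 per group). Across the 16 homeolog pairs in which both copies were tested, 11 pairs had the same sign, the median gap between copies was 0.16 on the log2 scale, and cct7 was the pair in which both copies passed.

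Set differences were larger than group differences for most chaperone genes, as for most of all genes tested. The median absolute log2 difference was 0.12 between the groups and 0.37 between the sets (0.14 and 0.36 over all genes), and the set difference was the larger one for 54 of 72, or 75%, against 73.3% of all genes. dnajb4.S had a set 2 to set 1 ratio of 2.72 and a log2 difference between groups of -0.0038. 9 of the 72 genes had both MCI-HGR values above both ICD values and 7 had both below, where 12.6% of all genes were above and 9.5% below.

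Genes that work with these chaperones were read from 4 lists made with earlier results of these data known, and their direction is no independent evidence. A list held the R2TP complex and the dynein arm assembly factors, which with Hsp90 build the motors of cilia before they enter the cilium. It named 29 symbols, not all of which matched a gene tested. All 13 genes tested rose, where 6.65% of all genes were called higher. Their median log2 difference was 1.21. zmynd10.L, an assembly factor of dynein arms, was at 732.8 and 758.5 with MCI-HGR against 130.7 and 111.7 with ICD alone, 6.17-fold higher (limma with the block, adjusted p = 6.96e-15). dnaaf10.L was at 1222 and 1612 with MCI-HGR against 460.5 and 515.6 with ICD alone, 2.88-fold higher (limma with the block, adjusted p = 1.42e-12). ruvbl2.L, for an ATPase ring subunit of R2TP, was at 2353 and 2735 with MCI-HGR against 1010 and 1188 with ICD alone, 2.32-fold higher (limma with the block, adjusted p = 2.82e-12), and its homeolog ruvbl2.S was 1.64-fold higher. For 12 of the 13 genes both MCI-HGR values were above both ICD values, as for 12.6% of all genes, but 0 passed without the block (smallest adjusted p = 0.0804).

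In the other 3 lists most genes did not pass. Of 7 genes of the prefoldin and phosducin-like partners of CCT, txndc9.L rose 1.53-fold, at 527.5 and 552.1 with MCI-HGR against 339 and 367.5 with ICD alone (limma with the block, adjusted p = 0.000149), and 6 did not pass. That is a share of 14.3% called beside 9.93% of all genes. Of 24 genes of Hsp90 co-chaperones, mitochondrial exchange factors and heat shock factors, 2 rose, 0 fell and 22 did not pass, a share of 8.33% beside 9.93% of all genes. Those 2 were the exchange factors of mitochondrial Hsp70, grpel2.L at 207.6 and 150.2 with MCI-HGR against 171 and 53.5 with ICD alone, and grpel1.L at 1874 and 1734 against 1687 and 1313. grpel2.L was 1.21- and 2.81-fold higher in sets 1 and 2, with overlap across sets (limma with the block, adjusted p = 0.00284). Without the block its SE was 0.62. For grpel1.L it was 1.11- and 1.32-fold, without overlap (limma with the block, adjusted p = 0.0251). The heat shock factor gene hsf2.L was at 601.8 and 711.8 with MCI-HGR against 630.2 and 707.8 with ICD alone. hsf1.S was dim, at 24.4 and 18.8 with MCI-HGR against 34.3 and 17.4 with ICD alone. Another entry, hsf1, was also dim, at 31.4 and 24 with MCI-HGR against 46.3 and 29.3 with ICD alone. It was lower in both sets, as were 29% of all genes, and did not pass (log2 difference -0.42).

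**Figure D5:**
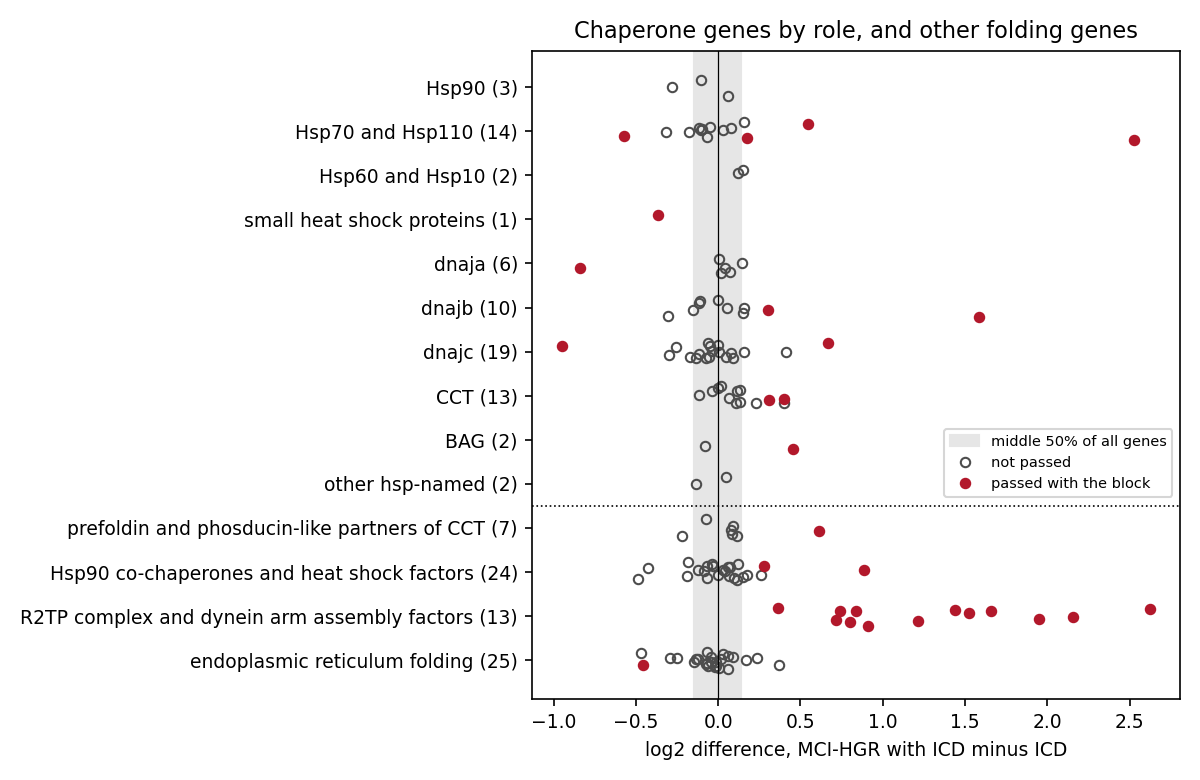
Log2 difference between MCI-HGR with ICD and ICD on the horizontal axis, 1 circle per gene, for the 72 chaperone genes by role (above the dotted line) and 4 lists of other folding genes (below it), with the number of genes tested in brackets; filled circles passed with the set as a block and the grey band holds the middle 50% of all genes. Of the 72 chaperone genes 53 lie within 0.25 of 0; hsp70.L at 2.52 and dnajb13.S at 1.58 lie farthest to the right and dnajc9.L at -0.95 and dnaja4.2.S at -0.84 farthest to the left, while all 13 genes of R2TP and dynein arm assembly lie to the right of the band.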

How the data were processed

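Per the submitters' processing notes, the authors used MAS5 to make the deposited values, a linear intensity for each probe set on each array. The version and target of scaling were not given in the sources used here. As MAS5 handles arrays one by one, differences in distribution between arrays remain, and dim values are noisy. Of 32635 probe sets, 96 controls were left out. Log2 was taken of the rest, the dimmest 25% (mean log2 signal under that of 10.6) were removed, and for each symbol of the platform annotation the brightest probe set was kept, which gave 9380 genes. Probe sets with several symbols, 3 of them with a chaperone symbol, were not used. All 80 symbols matched RefSeq assembly v10.1 by gene ID.

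Groups were compared, two-sided, with lmFit and eBayes (intensity trend on) of limma 3.58.1, run in R 4.3.3, and Benjamini-Hochberg adjustment over all 9380 genes. The primary fit held no term but the group. A second fit added the replicate number as a block; it is printed because the arrays parted by number. Log2 differences are the same in both. Unless stated otherwise, the SE printed is that of the blocked fit. It is moderated by eBayes and is not the spread of a gene's own arrays alone. Over all genes, deviations from the group mean of arrays with the same number correlated at r = 0.796 (one value per gene, so no independent replicates). The labels do not state that a number marks a shared clutch or day, and do not tie replicates to separate clutches. The p-values therefore do not cover any spread beyond these samples. Those of the blocked fit take most of their error from genes of like brightness, not from each gene's own arrays. Precision is limited by how many arrays there were.

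The members and lists were chosen with earlier results of these data known. Named with p were, of the chaperone genes that passed the blocked fit, up to 8 with the smallest p in each direction (8 higher and all 4 lower), the brightest of each role, and up to 3 genes per direction in each list of partners; cct7.S is the homeolog of such a gene, and the other genes were named after their values were seen. Roles and compartments are background knowledge. Sequences were not used here. Above background means above the brightest of the 17 tag controls on that array, which was at 12.4 and 9.2 on the MCI-HGR arrays and 13 and 10 on the ICD arrays.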

Additional observations from a re-analysis of the deposited data

How the results depend on the processing

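Without a block, 0 chaperone genes passed under the other normalizations, filters, pseudocount, probe set rule or variance model, and 0 to 1 passed with 1 array left out (hsp70.L, without ICD replicate 2). With the replicate block 13 passed. That count was 8 with quantile normalization, 11 with each array centred on its median, 11 with no filter, 12 with the lowest 50% removed, 13 with log2(signal + 16), 11 with the mean over probe sets and 0 without an intensity trend. In the lists of partners 0 genes passed without a block, 0 to 3 with 1 array left out and 17 with the replicate block; under the same changes to the blocked fit 15, 17, 17, 17, 18, 15 and 1 passed. The median log2 difference of the chaperone genes was -0.018 after quantile normalization and 0.040 with centring, with or without the block, and ran from -0.080 to 0.11 with 1 array left out, changing sign. With 1 array left out, log2 differences that changed sign ran from -0.10 to 0.90 for cct7.L, -0.068 to 0.68 for cct7.S, -0.23 to 0.35 for hsp90b1.L, -0.11 to 0.19 for dnaja1.L, -1.27 to 0.12 for hspa5.L, -0.093 to 0.33 for hspd1.S, -0.47 to 0.39 for cct5b and -0.40 to 0.14 for hspbp1.L. With 1 array out the sets are no longer balanced between the groups, so those values also hold part of the set difference. Within sets 1 and 2 cct7.L was 1.31- and 1.33-fold higher. What moved the values under the other settings was not tested. Under 7 of the 8 blocked fits hsp70.L, dnajb13.S, dnajc1.S, dnajc9.L, hspa5.L, hsph1.S and cct7.L passed, the exception being the fit without an intensity trend. Signals near the tag controls set the limit for 8 chaperone genes.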
